A study of Canis lupus familiaris with 6 samples.

Results

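The cells described here are barcodes of the dog retina that carried RNA of FBP1 together with myeloid RNA. A barcode, which stands for 1 droplet, was a member when it had at least 300 detected genes, at least 1 FBP1 UMI (unique molecular identifier, 1 counted RNA molecule), and at least 2 UMIs and 0.2% of its UMIs in the sum of C1QA, C1QB, C1QC, CSF1R, AIF1 and CD74. Müller glial transcripts (RLBP1, GLUL and SLC1A3) had to stay under 0.3% of its UMIs. In all, 263 of 82153 barcodes qualified. Of these, 239 came from 1 library, the LG5 punch over the graft, so the account below is mainly one of that library. The members were thus chosen by the measured UMIs of FBP1, the 6 myeloid genes and the 3 glial genes, and the levels of these genes are therefore given as description with no test.

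The samples were neuroretina from normal, wild-type dogs under immunosuppression, which had received fragments of retinal organoids under the retina. The organoids were grown from WA09 CRX-tdTomato, a human embryonic stem cell line in which a photoreceptor gene drives a red fluorescent protein. At day 3 after grafting, a 5 mm punch was taken over the graft and another from graft-free retina, and trypsin (0.25%, 10 min) and a dissociation kit released the cells for 10X 3′ libraries. There were 3 experiments (LG5, RC726 and RC724) with 1 punch of each kind, so 3 libraries were over the graft and 3 were controls. Both groups shared the immunosuppression, and the control punch lay in retina that also held a graft elsewhere, so neither group is untreated retina.

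FBP1 encodes fructose-1,6-bisphosphatase, the enzyme that reverses a committed step of glycolysis during gluconeogenesis, and it is also transcribed in monocytes and macrophages. Microglia are the resident macrophages of the retina and are known for high levels of the complement C1q chains and for the receptors P2RY12 and CX3CR1. Monocytes that enter a tissue from blood can become macrophages that carry scavenger receptors such as MARCO, CD163 and MRC1.

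The 6 libraries held 8775 to 23898 barcodes with at least 300 genes, with median UMI totals of 1259 to 2684 per barcode. Rods, the main retinal photoreceptors, were found in every library by their transcripts, with 2721 to 6411 barcodes each. The LG5 libraries were shallower per barcode than the others and were counted with another version of the counting software. Between 17 and 102 barcode sequences were shared by any pair of libraries, and no member was a member in both libraries of a pair. Members had a median of 2580 UMIs in LG5 over the graft and 3015.5 in LG5 control, against 14749 to 41037 in the 3 other libraries that held any. Among the 239 members over the LG5 graft, 40 had a doublet score in the top 6% of their library, 16.7% of them, and the share was 15.3% among the FBP1-negative microglia of the same library.

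The members were counted first. In LG5, 239 of 23898 barcodes over the graft were FBP1-positive, a share of 1.0% (exact 95% interval 0.878 to 1.13), and 12 of 18049 in control, a share of 0.0665% (0.0344 to 0.116). The LG5 share over the graft was 15 times that of its control (exact conditional interval 8.45 to 29.5). RC726 gave 4 of 11578 barcodes over the graft and 3 of 10124 in control, a ratio of 1.17 with an interval of 0.197 to 7.96. RC724 gave 5 of 9729 barcodes over the graft and 0 of 8775 in control, where the limit at 3 counts is 0.0342% and the exact upper bound 0.0420%. These intervals cover counting error only. The RC726 and RC724 differences were not detectable with this rule. The counts moved with it: with at least 2 FBP1 UMIs the ratio was 37.0 in LG5 and 3.5 in RC726 (interval 0.346 to 172). With the microglia gate in place of the myeloid gate, RC724 held 96 FBP1-positive barcodes over the graft and 31 in control, a ratio of 2.79 (1.85 to 4.33). Most of that gate's FBP1-negative barcodes in RC724 lay outside the myeloid gate, 196 of 211 over the graft and 138 of 145 in control. Its median depths were 27783 and 23119 UMIs. The share of its barcodes with FBP1 was 31.3% over the graft and 17.6% in control. With each barcode thinned to 1000 UMIs, the expected shares were 2.22% and 0.886%. With the RC724 control set at 3 counts, the mean log2 ratio over the 3 experiments was 1.57 ± 2.03 (SD, n = 3), and the exact two-sided sign-flip test gave p = 0.25, the smallest p that 3 pairs allow. Without LG5 the mean log2 ratio was 0.40.

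As a share of all barcodes inside the myeloid gate (the same rule without the FBP1 condition), members made up 24.9% of 961 barcodes over the LG5 graft (exact interval 22.2 to 27.7) and 4.27% of 281 in LG5 control (2.23 to 7.34). The RC726 values went the other way, 11.8% of 34 barcodes over the graft and 18.8% of 16 in control, with intervals that overlapped widely. With at least 2 FBP1 UMIs the RC726 direction turned, at 11.8% against 6.25%. RC724 had 23.8% of 21 over the graft and none of 8 in control. The mean difference was 12.5 ± 16.9 percentage points (SD, n = 3), with an exact two-sided sign-flip p = 0.5. When every barcode was thinned to 1000 UMIs and shallower ones were left out, the expected shares over graft and control were 20% and 2.80% for LG5. They were 8.79% and 3.75% for RC726 and 21.5% and 0% for RC724, whose control then held 2 barcodes. As background, 0% to 0.270% of rod-gated barcodes had an FBP1 UMI (median depth 909 to 2618 UMIs). Among Müller-gated barcodes, which had up to 11686 median UMIs, it was 2.25% to 15.3%, and 0.368% to 1.34% after thinning. In RC724 control the Müller-gated share was above that of the 8 myeloid-gated barcodes, none of which had an FBP1 UMI.

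**Figure D1:**
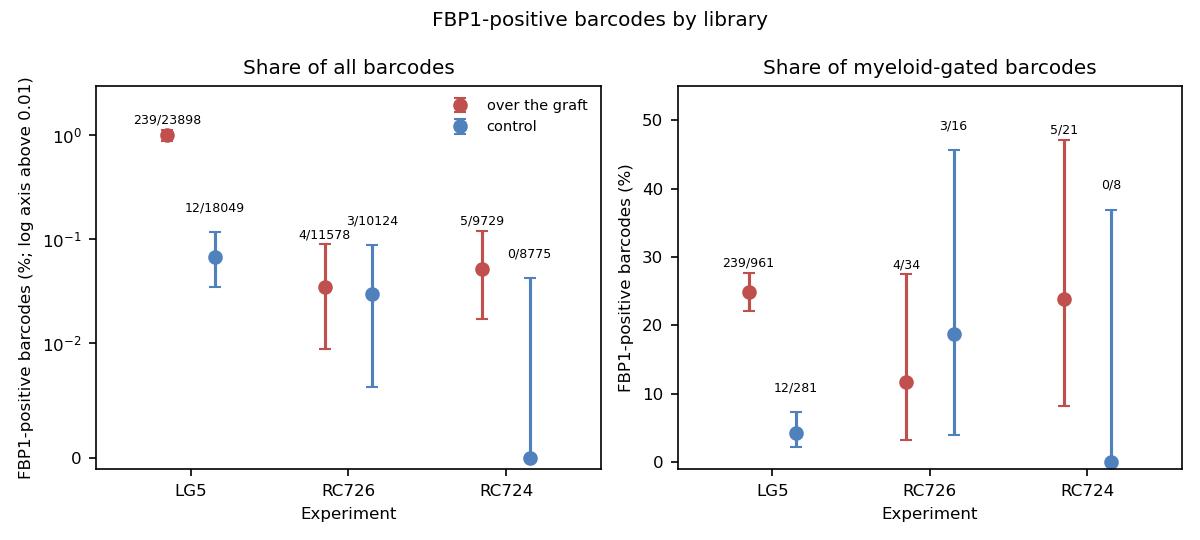
FBP1-positive barcodes as a percentage of all barcodes with at least 300 genes (left, log axis above 0.01%) and of myeloid-gated barcodes (right), for each experiment. Points are single libraries, bars are exact 95% binomial intervals for counting error, and the labels give members over barcodes; only in LG5 do the bars of the 2 punches not overlap in either panel.

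Within the LG5 library over the graft, members differed in how much FBP1 they held. There were 92 members with 1 FBP1 UMI, 30 with 2, 47 with 3 to 5 and 70 with 6 or more, and the highest count was 29. At the limits of the rule, 34 members had 0.2 to 0.3% of their UMIs in the myeloid genes, with a median of 5 FBP1 UMIs. Another 19 FBP1-positive barcodes with 0.1 to 0.2%, and also a median of 5 FBP1 UMIs, fell just outside. A further 722 myeloid-gated barcodes had no FBP1 UMI.

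The C1q chains, which are part of the rule and of both comparison gates, had lower levels at higher FBP1 counts. C1QA stood at 3361 CPM in FBP1-negative microglia of this library, 2768 in members with 1 FBP1 UMI, 611 with 2, 536 with 3 to 5 and 368 with 6 or more (here and below, a level is in CPM, the UMIs of a gene per 1000000 UMIs summed over a class of barcodes). C1QB went from 3824 to 2990, 486, 649 and 352 along the same classes. The FBP1-negative barcodes of the myeloid gate stood above all of these, at 4364 for C1QA and 4967 for C1QB. APOE, a lipid carrier, was at 3271, 2295, 200, 1047 and 839 CPM. GPR34, a receptor of resting microglia, was at 194, 126, 49.9, 24.3 and 25.9. CD74, the invariant chain of MHC class II, went the other way, from 1164 to 2186, 3791, 3693 and 3033, and AIF1 from 597 to 784, 998, 1096 and 1077. In FBP1-negative barcodes of the myeloid gate CD74 was at 1697 and AIF1 at 810, so AIF1 was not higher in members with 1 FBP1 UMI. CSF1R, also in the rule, was at 464, 317, 274, 268 and 269 along the same classes. CD74 and AIF1 were the myeloid genes of the rule found in most members: 98.3% had a CD74 UMI and 87.9% an AIF1 UMI, while 33.9% had a C1QA UMI. By UMIs the C1q chains were not minor: CD74 had 2090 and AIF1 690, and C1QA 1129, C1QB 1206 and C1QC 514. Of the C1QA UMIs, 943 were in the 92 members with 1 FBP1 UMI. Of the 239 members, 171 also met the gate used for microglia, which leaves CD74 out.

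**Figure D2:**
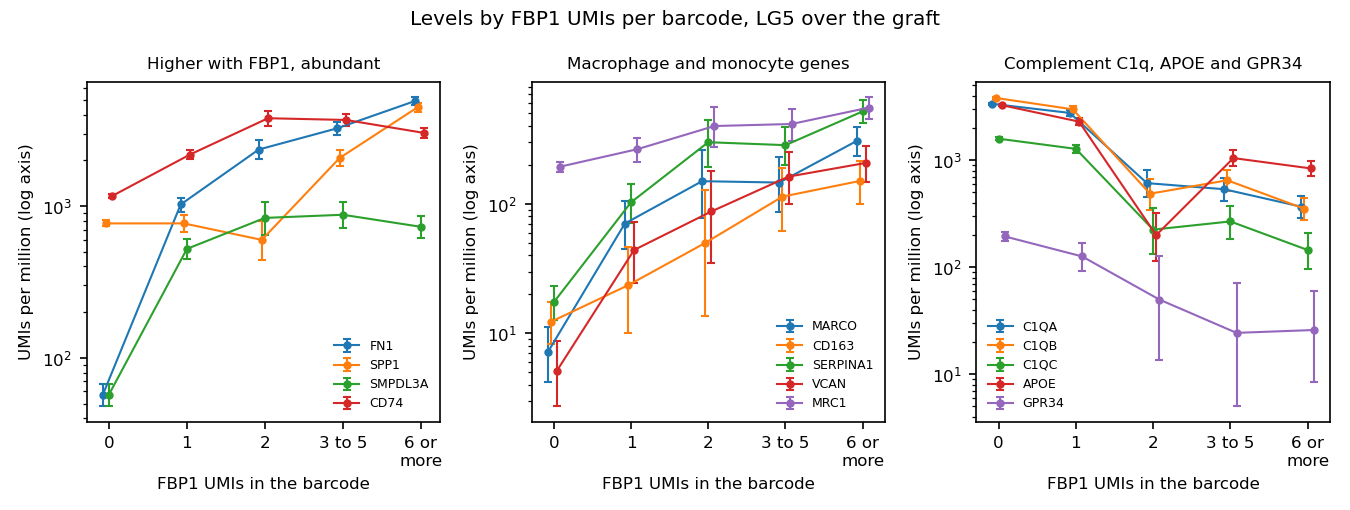
Levels in CPM (log axes) of 14 genes in the LG5 library over the graft, by the number of FBP1 UMIs in the barcode; 0 stands for the FBP1-negative microglia, and bars are exact 95% Poisson intervals for counting error. FN1, MARCO, CD163, SERPINA1 and VCAN are lowest at 0 FBP1 UMIs, and C1QA, C1QB and C1QC are lowest at 6 or more, where C1QA is at 368.

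Several genes that the rule did not use had higher levels at higher FBP1 counts. FN1, which encodes fibronectin, a glycoprotein of the extracellular matrix, was at 56.9 CPM in FBP1-negative microglia and at 1024, 2357, 3246 and 4912 in members with 1, 2, 3 to 5 and 6 or more FBP1 UMIs. SPP1, the matrix and cytokine-like protein osteopontin, was at 768, 769, 599, 2078 and 4483, so it stood above microglia only from 3 FBP1 UMIs. MARCO, a scavenger receptor, was at 7.11, 70.4, 150, 146 and 305, and CD163, the haemoglobin scavenger receptor, at 12.2, 23.5, 49.9, 114 and 150. The class with 2 FBP1 UMIs had the fewest barcodes, and its Poisson interval for CD163 ran from 13.6 to 128.

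To describe the members across genes, their UMI sums were compared with those of FBP1-negative microglia of the same library, barcodes with no FBP1 UMI and at least 3 UMIs in C1QA, C1QB, C1QC, CSF1R, AIF1, CX3CR1 and P2RY12. Only the LG5 punches had at least 10 barcodes in both classes (239 against 754 over the graft, 12 against 262 in control), so the test rests on 4 sums from 2 punches of 1 experiment. Its p-values speak of the spread between those sums alone, pooled over all genes. The estimated prior degrees of freedom were infinite, so a gene's own spread had no weight in its p-value. With libraries of at least 3 barcodes a class added, as below, the prior was 4.93. With edgeR's quasi-likelihood test, library as a block and Benjamini-Hochberg adjustment, 279 of 7310 genes were called at an adjusted p of 0.05, or 3.82%: 134 were higher in the members (1.83%) and 145 lower (1.98%). The comparison barcodes were not all alike: 141 of the 754 over the LG5 graft lay outside the myeloid gate and held 28.8% of their UMIs. Calls are therefore also read against FBP1-negative barcodes of the myeloid gate, 722 over the graft and 269 in control, where 126 of 7149 genes were called (1.76%), 97 higher (1.36%) and 29 lower (0.406%). Of the 134 higher genes, 92 were called again against that stricter class, and of the 145 lower genes 15 were. With libraries of at least 3 barcodes a class added, edgeR called 0 of 6291 genes (1329 at an unadjusted p of 0.05). Of the genes named below as largest, the 2 higher and 9 lower ones tested there kept their sign, SMPDL3A at 4.48 for example. In the added comparison classes most UMIs lay outside the myeloid gate: 85.9% (RC726 graft punch), 87.0% (RC726 control) and 98.9% (RC724 graft punch). The sign of the lower genes thus cannot be told apart from the gate used. With the myeloid gate at this minimum, 2 lower genes were tested and kept their sign. Against that gate, 4 of the 12 lower genes were lower and 3 higher in RC726 graft punch members. The counts were 4 and 1 for RC726 control, 10 and 0 for RC724 members. With DESeq2 on the LG5 sums 86 genes were called.

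FN1 had the largest difference. Its level was 2559 CPM in members over the LG5 graft (Poisson interval 2445 to 2677) and 56.9 in FBP1-negative microglia, and in LG5 control it was 1797 against 0. Both LG5 punches showed the same direction, and 68.2% of members over the graft had an FN1 UMI against 2.92% of the microglia. The fitted log2 difference was 6.32 ± 0.49 (SE; edgeR adjusted p = 4.25e-34), and 5.17 ± 0.38 against the myeloid gate (edgeR adjusted p = 2.66e-38). In RC726 over the graft FN1 stood at 829 in the 4 members, against 0 in the FBP1-negative myeloid-gated barcodes, and in RC724 over the graft at 110 in 5 members against 0. The 3 members of RC726 control had no FN1 UMI, and in RC724 control, which had no member, 6 FN1 UMIs in the 8 FBP1-negative myeloid-gated barcodes made a level of 735. With the smaller libraries added (at least 3 barcodes a class) the FN1 log2 difference was 4.68 with an edgeR adjusted p of 0.0926, and DESeq2 on the LG5 sums gave an adjusted p of 0.101.

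Of the other genes with the largest positive differences, SERPINA1, the protease inhibitor alpha-1 antitrypsin, was at 263 CPM against 17.4 over the LG5 graft and 136 against 1.66 in LG5 control, a log2 difference of 4.14 ± 0.44. S100P, a calcium-binding protein, was at 232 against 17.0 and at 653 against 4.97 (4.47 ± 0.39). SMPDL3A, a secreted phosphodiesterase of macrophages, was at 670 against 57.3 and at 517 against 21.5 (3.78 ± 0.37). The 3 genes shared a pattern of high levels in both LG5 punches, each resting on at least 5 UMIs in the 12 control members. MCEMP1, a transmembrane protein of mast cells and monocytes, was at 119 against 5.53 and at 218 against 0 (4.86 ± 0.51). CXCL14, a chemokine, was at 97.6 against 3.95 and at 54.5 against 1.66 (4.64 ± 0.45), where the control value is 2 UMIs. The enzyme CD38, which consumes NAD, was at 32.5 against 1.19 over the graft and rested on 1 UMI in control (4.83 ± 0.77).

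The remaining genes of these 15 were FSIP1, MARCO, SERPINB10, VCAN, HIC1 (a transcription factor), THBS1, MAPK13 (a kinase) and CDC42EP3, with log2 differences of 3.82 to 4.75. All 15 kept their call against the myeloid gate. The test covered only genes past a filter on low counts, which the sums of 1 class alone can meet. SMPDL3A alone of the 15 met it by its level in FBP1-negative microglia. The others were tested only through their level in members, FN1 (56.9 and 0 CPM in those microglia over the graft and in control) among them. Against the myeloid gate FN1, at 94.5 and 25.2, met it too. Calls and ranks among the 15 are thus partly set by the filter. FSIP1 and THBS1, which encodes the matrix protein thrombospondin-1, lie next to each other with no gene between them in the RefSeq gene table. FSIP1 was at 141 CPM and THBS1 at 153 in members over the graft. Across the smaller libraries, 14 of the 15 genes were higher in members than in FBP1-negative myeloid-gated barcodes in RC726 over the graft, 4 in RC726 control and 8 in RC724 over the graft. In RC726 control, 11 of the 15 had no UMI in the 3 members, which hold 55384 UMIs in all.

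**Figure D3:**
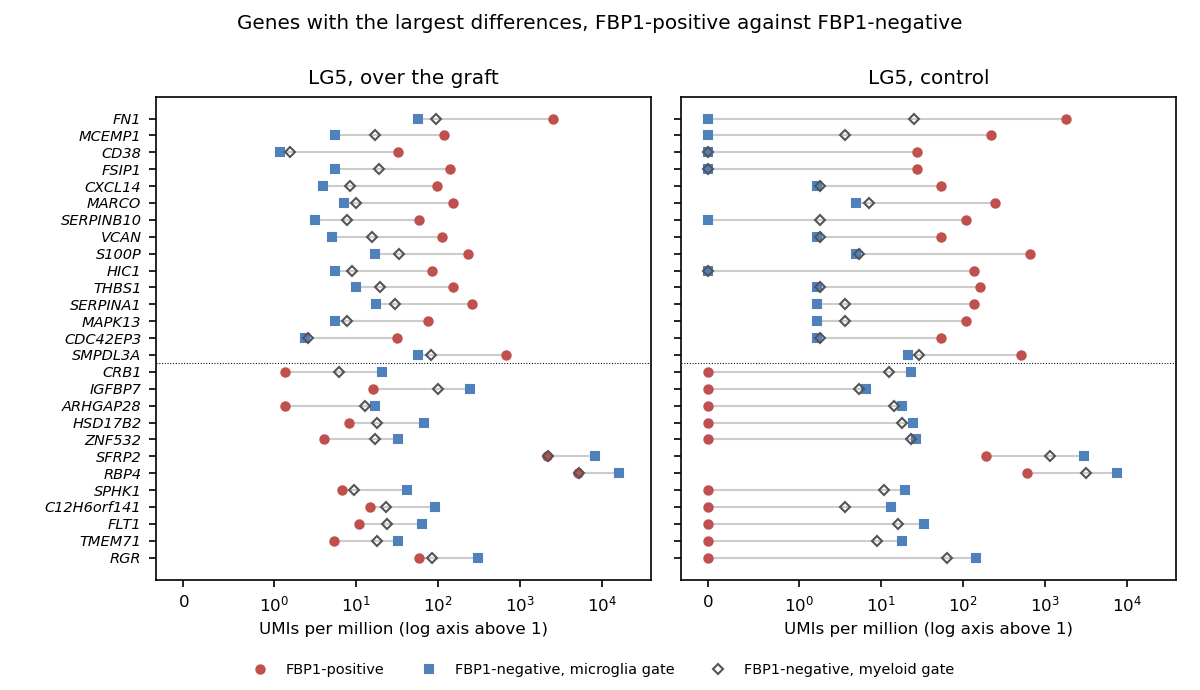
Levels in CPM (log axis above 1) of the 15 genes with the largest positive and the 12 with the largest negative differences, in the LG5 punch over the graft and the LG5 control. Circles are FBP1-positive barcodes, squares FBP1-negative microglia, and diamonds FBP1-negative barcodes of the myeloid gate; RBP4 and SFRP2 over the graft show the circle on the diamond.

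Macrophage and monocyte genes were examined as lists, with the 7310 tested genes as reference (median log2 difference -0.06). Of 12 tested macrophage genes, 6 were higher and none lower, with a list median of 0.76. CD163 was at 74.6 CPM against 12.2 over the LG5 graft and at 109 against 33.1 in control, a log2 difference of 2.37 ± 0.43 (edgeR adjusted p = 7.24e-06). MRC1, the mannose receptor, was at 380 against 194 and at 408 against 87.8 (1.29 ± 0.34, edgeR adjusted p = 0.0071). F13A1, the A chain of coagulation factor XIII, was at 80.0 against 18.2 and at 299 against 19.9 (2.55 ± 0.43). MARCO, STAB1 and GPNMB were the others, and STAB1 lost its call against the myeloid gate (edgeR adjusted p = 0.225), where LYVE1 was called lower. In FBP1-negative microglia over the graft and in control, MARCO was at 7.11 and 4.97 CPM and STAB1 at 12.6 and 11.6. Both thus passed the filter on low counts only through their level in members. CD163, at 12.2 and 33.1 in the same classes, also needed its level in members to pass. The count of this list is partly set by that filter. CD68, a lysosomal protein common to macrophages and microglia, did not pass: it was at 14.9 against 15.4 (0.03 ± 0.55).

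Of 10 monocyte genes in the files 5 were tested, and 3 of these were higher, with a list median of 3.0. LYZ, the bactericidal enzyme lysozyme, was at 194 CPM against 21.7 over the graft and at 354 against 46.4 in LG5 control (3.0 ± 0.38, edgeR adjusted p = 1.18e-12). VCAN, the proteoglycan versican, and THBS1 were the others. In FBP1-negative microglia over the graft and in control, VCAN was at 5.14 and 1.66 CPM and THBS1 at 9.88 and 1.66. These 2 genes thus passed the filter on low counts only through their level in members. The count and the median of this list are partly set by that filter. LYZ was also higher in all 3 smaller libraries with members, for example 159 against 15.7 in RC724 over the graft. CCR2, the receptor that draws monocytes to CCL2, was too low to be tested, with 24.4 against 5.93 CPM over the graft and no UMI in the 12 control members.

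Genes of resting microglia were mostly not called. Of 5 tested, with a median of -0.92, none was higher and SPARC alone was lower, and SPARC lost that call against the myeloid gate. GPR34 was at 74.6 CPM against 252 in the myeloid gate over the graft and at 436 against 410 in control. It was called there (-1.16 ± 0.31, edgeR adjusted p = 0.0164), not against the microglia gate (edgeR adjusted p = 0.147). SALL1, a transcription factor of microglia, was at 8.14 against 24.5 and did not pass. P2RY12 and CX3CR1, which entered the comparison's gate, were at 6.78 and 28.5 CPM in members against 24.1 and 49.4. TMEM119 had 2 UMIs in the 239 members, a level of 2.71, and stood at 1.58 in FBP1-negative microglia too.

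Against the macrophage-like label the markers were mixed: CD163, MRC1, MARCO, F13A1 and LYZ were higher, and CD68 was not. Of 17 tested phagocytic and scavenger receptor genes 4 were higher and none lower, and 3 were higher against the myeloid gate. Of the 4, STAB1, MARCO and CD163 needed their level in members to be tested, as given above. Of the 4 marker genes supplied with the label, FBP1 and CD74 belong to the rule. GLIPR2 was at 384 CPM against 100 over the LG5 graft and at 81.7 against 14.9 in control, and CTSB, the lysosomal protease cathepsin B, at 370 against 226 and 299 against 59.7. Both had been named with results of these libraries in view, so their levels describe the members and support nothing.

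Other cell types were checked with the same lists, since a droplet can hold RNA of a second cell. Among 12 T and NK cell genes 8 had no UMI in members over the LG5 graft, CD3D and CD3E among them. The summed list stood at 93.6 CPM against 151 in FBP1-negative microglia over the graft and at 191 against 89.5 in control. For B and plasma cells 7 of 10 had none, including MS4A1, CD79A and CD79B, and the sums were 97.6 against 153. Neutrophil genes summed to 48.8 against 17.4, with CXCR2, MMP8, MMP9 and PADI4 at 0, and to 191 against 44.7 in control. Against the myeloid gate CSF3R, 1 of 2 neutrophil genes tested there, was called higher. Of 16 dendritic cell genes 7 had no UMI, among them CCR7, XCR1, ZBTB46 and LAMP3. FLT3, the receptor of dendritic precursors, was called higher at 28.5 against 4.74 (2.73 ± 0.63, edgeR adjusted p = 0.000935), a call that was lost against the myeloid gate (edgeR adjusted p = 0.0568). In LG5 control FLT3 had 1 UMI in members and none in FBP1-negative microglia, so it was tested only through its level in members. CD83, on the same list, was called lower against the myeloid gate (-1.16 ± 0.31, edgeR adjusted p = 0.0136). FCER1A, a chain of the IgE receptor, had 67 UMIs in members over the graft, 90.9 CPM against 3.56, and none in LG5 control, and it was not tested. Of the 55 UMIs of the chemokine CCL17, 48 sat in 1 barcode.

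Müller glial transcripts were at a lower level in members than in the microglia gate. Without the 3 glial genes that the rule limits in members, the Müller list summed to 6844 CPM in members over the LG5 graft, 15466 in FBP1-negative microglia and 7739 in FBP1-negative barcodes of the myeloid gate. With those genes included, the sums in LG5 control were 10700, 9949 and 8158. APOE, which is on this list, made up 7133, 5912 and 5954 CPM of them. Other genes of the list were lower in the control members than in the other classes. CLU was at 81.7, 683 and 324, CRYAB at 0, 239 and 104, AQP4 at 0, 28.2 and 18.0, and DKK3 at 27.2, 54.7 and 30.6. When the same glial limit was put on the comparison microglia, 149 genes were lower, and 128 of 129 tested lower calls were made again. That limit kept 740 of the 754 comparison barcodes over the graft and 244 of 262 in control. The comparison was thus made with nearly the same barcodes, and its calls could hardly change. Against the myeloid gate, 15 of 128 tested lower calls were made again. The part of Müller RNA in the lower calls was not tested. Rod genes summed to 1336, 1669 and 1658 over the graft. Of 6 tested Müller genes, AQP4, CLU and CRYAB were lower against the microglia gate, and none was against the myeloid gate. The 12 genes with the largest negative differences were CRB1, IGFBP7, ARHGAP28, HSD17B2, ZNF532, SFRP2, RBP4, SPHK1, C12H6orf141, FLT1, TMEM71 and RGR. RBP4, the carrier of retinol in blood, was at 5080 CPM in members and 16185 in microglia over the graft, and at 5240 in the myeloid gate. In LG5 control it was at 599, 7576 and 3149, below both comparison classes. SFRP2, a secreted Wnt antagonist, was at 2148, 8272 and 2211 over the graft and at 191, 2985 and 1168 in control. With the glial limit on both classes their log2 differences were -2.06 for RBP4 and -2.18 for SFRP2, both called. Of the 12 genes, 7 could be tested against the myeloid gate and IGFBP7 alone kept its call (-2.54 ± 0.55, edgeR adjusted p = 0.00062). Of the 619 IGFBP7 UMIs in FBP1-negative microglia over the graft, 390 came from 1 barcode, and LG5 control members had none.

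Lipid handling genes were called in 5 of 19 cases, all higher, and all 5 kept the call against the myeloid gate. FABP5, a fatty acid binding protein, was at 2306 CPM against 695 over the LG5 graft and at 436 against 215 in control (1.38 ± 0.41, edgeR adjusted p = 0.029). ABCA1, which exports cholesterol, was at 107 against 21.3 and at 218 against 16.6 (2.6 ± 0.44, edgeR adjusted p = 5.96e-07). The others were APOC1, LGALS3 and GPNMB, and the list median was 0.37. The GPNMB call rested on 12 UMIs over the graft, of which 11 came from 1 barcode. APOE was at 1477 against 3271 over the graft and at 7133 against 5912 in control, and SPP1 at 1942 against 768 and at 708 against 666; neither passed. The smaller libraries did not share an SPP1 direction. Members of RC726 had 1032 CPM over the graft against 257 in FBP1-negative myeloid-gated barcodes, and 4026 against 55.8 in control, and those of RC724 over the graft 165 against 8299.

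Complement genes outside the C1q chains split. CFD, complement factor D, the protease that starts the alternative pathway's convertase, was at 2438 CPM against 271 over the LG5 graft and at 2832 against 759 in control (2.43 ± 0.43, edgeR adjusted p = 3.19e-06). Against the myeloid gate of the smaller libraries CFD was higher in members of RC726 over the graft, at 1141 against 330, and lower in RC726 control, at 217 against 521, and in RC724 over the graft, at 408 against 517. In LG5 the receptor C5AR1, properdin (CFP) and the decay factor CD55 were also called higher. CD55 was higher over the graft only, at 82.7 against 16.2. In LG5 control its members had no UMI, against 4.97 in FBP1-negative microglia. It needed its level in members over the graft to be tested. C1S, C3, CFB and CFI were lower, and against the myeloid gate, where 12 were tested and CD55 was not, CFD and C3 were called. The list had 4 higher and 4 lower of 13, with a median of -0.46. CFB changed sign against the myeloid gate, at 54.2 in members and 42.6 in that class over the graft.

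Cytokine and NF-kB genes had 2 higher and 3 lower calls of 19 tested. The 3 lower ones were called against both comparison classes. IL1A, an alarm cytokine, was at 38.0 CPM against 99.2 over the graft and at 136 against 298 in control. OSM, oncostatin M, was at 43.4 against 132 and at 218 against 280, and TNFAIP3, a brake on NF-kB, at 32.5 against 91.7 and at 81.7 against 202. Their log2 differences were -1.37 ± 0.39, -1.29 ± 0.38 and -1.48 ± 0.42. The higher ones, IL18BP and CASP4, lost their calls against the myeloid gate. IL6, TNF, NOS2 and ARG1 had no UMI in members over the LG5 graft. In the smaller libraries IL1A went the other way, with 172 against 88.1 in the myeloid gate of RC726 over the graft, 758 against 223 in RC726 control and 378 against 31.3 in RC724 over the graft.

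For antigen presentation, lysosome and metabolism the calls are counted beside 1.83% higher and 1.98% lower over all tested genes. Of 8 tested MHC class II genes DLA-DRA was higher, at 206 CPM against 74.7 over the LG5 graft (1.41 ± 0.36, edgeR adjusted p = 0.00449), and at the myeloid gate its adjusted p was 0.0544. The gene listed as HLA-DRB1 was at 3921 against 1506 over the graft and at 2750 against 2145 in control and did not pass. None of 14 MHC class I genes was called (median 0.52), and CTSH alone of 25 lysosomal genes was, at 475 against 190 (1.36 ± 0.33). Of 20 glycolysis and gluconeogenesis genes none was higher, and the glucose transporter SLC2A1 was lower against the microglia gate only. HK3, a hexokinase of blood cells, was below the filter, with 40.7 CPM against 1.98 over the graft and no UMI in LG5 control. No type I interferon gene of 22 was called, nor any of 20 cell cycle genes or 51 ribosomal genes.

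Genes of actin, adhesion and migration were called higher in 6 of 36 cases: S100A4, CYTIP, GLIPR2, ITGA4, ANXA2 and LGALS3. GLIPR2 is a marker supplied with the label, so its call supports nothing. CYTIP, at 12.2 and 1.66 CPM in FBP1-negative microglia over the graft and in control, and S100A4, at 102 and 11.6, needed their level in members to be tested. The count is thus partly set by the filter on low counts. ITGA4 lost its call against the myeloid gate (edgeR adjusted p = 0.383). S100A4, a calcium-binding protein of motile cells, was at 614 CPM against 102 over the graft and at 463 against 11.6 in control (3.17 ± 0.37, edgeR adjusted p = 3.76e-15). CYTIP, a cytohesin-binding protein of leukocytes, was at 93.6 against 12.2 (3.0 ± 0.40). Of 25 transcription factors RUNX3 was higher and BHLHE41 lower. Against the myeloid gate RUNX3 lost its call (edgeR adjusted p = 0.359), and KLF2, KLF4 and BHLHE41 were lower. SPI1, the myeloid factor PU.1, was at 208 against 119 and did not pass.

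**Figure D4:**
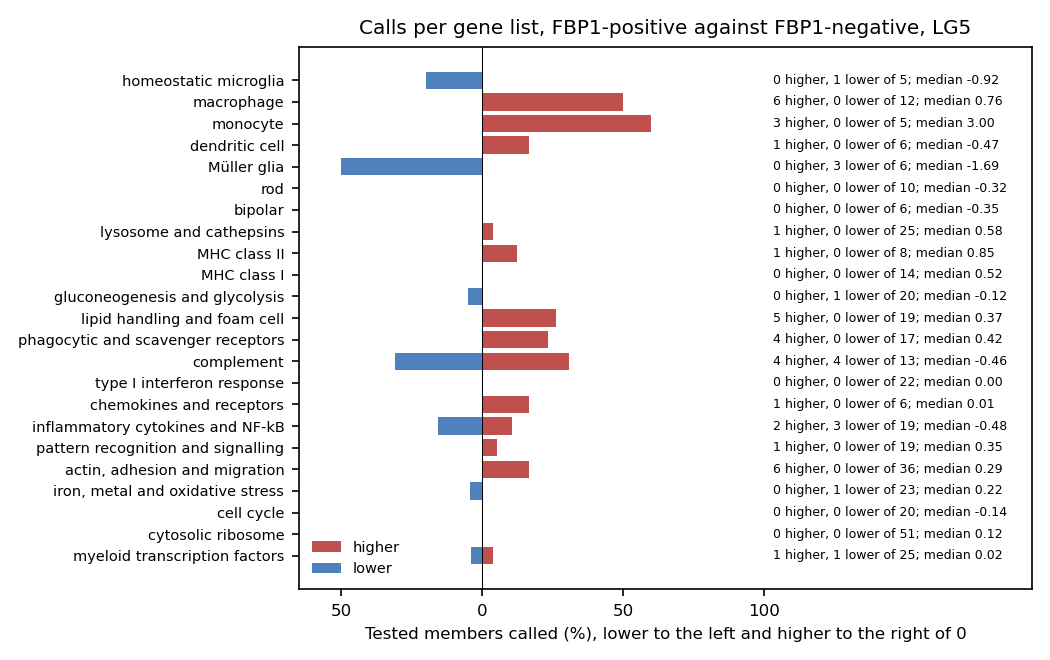
Share of the tested members of each gene list (5 or more tested) that was called higher (right of 0) or lower (left of 0) in FBP1-positive barcodes, from the edgeR fit on the 2 LG5 punches; the text at the right gives the counts and the median log2 difference. Monocyte and macrophage lists have the largest shares of higher calls, 3 of 5 and 6 of 12, against 1.83% of all tested genes. VCAN and THBS1 of the monocyte list and MARCO, STAB1 and CD163 of the macrophage list were tested only through their level in FBP1-positive barcodes. So were FLT3, CXCL14, CD55, CYTIP and S100A4 of other lists.

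The genes most like FBP1 across single barcodes were sought among 782 myeloid-gated barcodes of the LG5 punch over the graft, each thinned to 1000 UMIs (179 shallower ones were left out), over 2832 genes. These barcodes share 1 library, and thinned counts are sparse, so the values are descriptions. FN1 had by far the highest Spearman correlation with FBP1, 0.673. It was followed by CFD with 0.463, the pyrimidine enzyme CDA with 0.460, the protease inhibitor TIMP1 with 0.390, SERPINA1 with 0.368, SMPDL3A with 0.352 and GLIPR2 with 0.351. S100A4, LOC403631 and SLA completed the 10, at 0.332 to 0.325. CTSB stood at rank 484 with 0.0537. At the other end were LOC607874 with -0.535, C1QA with -0.519, C1QB with -0.517 and C1QC with -0.486, then CH25H, a cholesterol hydroxylase, with -0.442, RGS1 with -0.398 and APOE with -0.373.

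**Figure D5:**
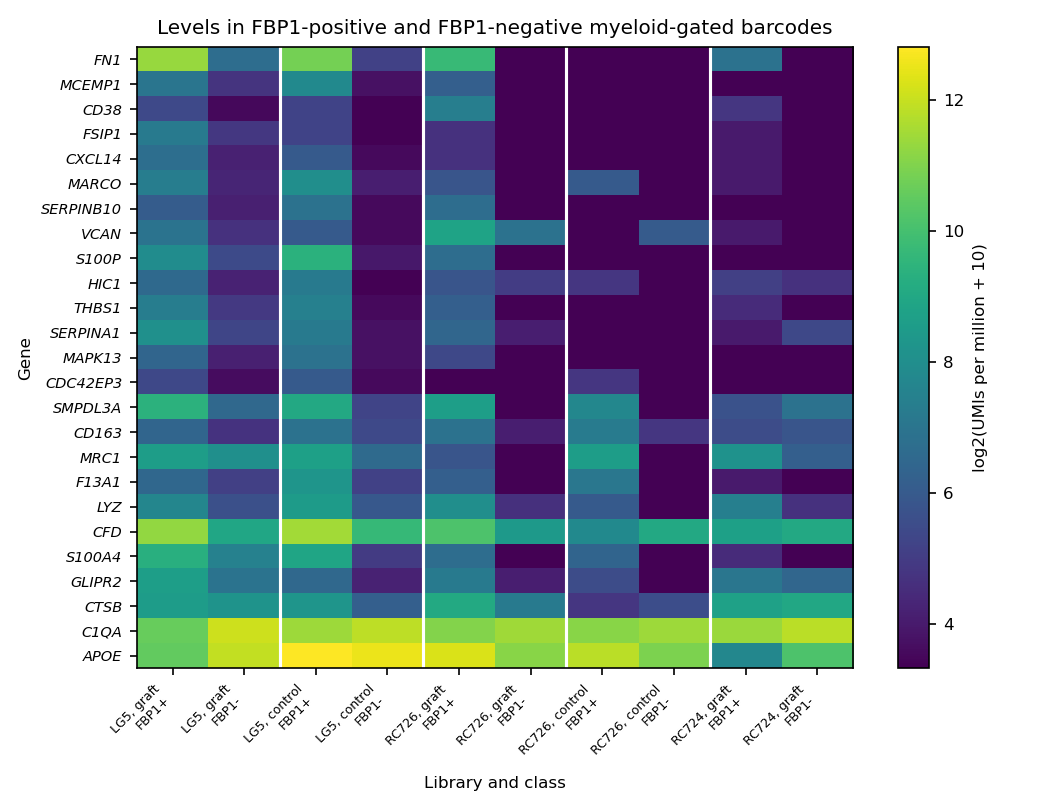
Levels, as log2(CPM + 10), of 25 genes in FBP1-positive and FBP1-negative myeloid-gated barcodes of the 5 libraries with members (239, 12, 4, 3 and 5 members from left to right). FN1 is bright in the FBP1-positive columns of both LG5 punches and of RC726 over the graft, at 2559, 1797 and 829 CPM, and absent from that of RC726 control.

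The members over the graft could be set beside those of the control in LG5 alone, with 737333 against 36730 UMIs. With 1 library a side there is no test, and 1 UMI in control is 27.2 CPM. Of 4859 genes with at least 20 UMIs in either, 1442 (29.7%) were at least 2-fold higher over the graft and 330 (6.79%) at least 2-fold lower, on CPM + 10, and the median log2 ratio was 0.29. The depth of the control enters these counts: 1003 of the 1442 had no control UMI, and with the control set at 3 counts or more 180 genes were at least 2-fold higher. FABP5 was at 2306 over the graft (Poisson interval 2197 to 2418) and at 436 in control (249 to 707). FBP1 itself was at 1569 and 653. MRC1 and CD74 had overlapping intervals, for MRC1 337 to 427 around 380 and 229 to 674 around 408. APOE was lower over the graft, at 1477 (1390 to 1567) against 7133 (6296 to 8051), and so were CXCL8, a neutrophil chemokine, at 153 against 898, the adhesion molecule ICAM1 at 74.6 against 463, and GPR34 at 74.6 against 436. In FBP1-negative myeloid-gated barcodes of the same libraries APOE was at 3887 against 5954, CXCL8 at 204 against 637 and ICAM1 at 180 against 461. FABP5 was at 844 against 211 there. Each of these had the same direction as in members, with a smaller ratio. The 12 control members held mostly 1 FBP1 UMI (median 1) and those over the graft a median of 2, and the part of that difference in these values was not tested.

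Several genes with no UMI in the 12 control members were high over the graft. VMO1 was at 407 CPM, at least 4.98-fold higher when the control is set at 3 counts, and LACRT at 521, at least 6.38-fold higher. Over all barcodes of the libraries VMO1 was at 1294 over the graft and 10.4 in control, and LACRT at 2439 and 2376. In FBP1-negative myeloid-gated barcodes VMO1 was at 452 over the graft and 34.2 in control, and LACRT at 565 and 351. Over the graft, both genes stood higher in those barcodes and in the whole library than in the members. The differences are thus not particular to members, and the part of RNA from other cells in these values was not tested. CXCL13, a B cell chemokine, was at 397 in members over the graft, but 286 of its 293 UMIs came from 1 barcode.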

How the data were processed

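Neuroretina from 3 grafted experiments was profiled by 10X 3′ single-cell RNA sequencing in 6 libraries. Per the submitters' processing notes, reads were counted with Cell Ranger, version 6.0.2 for both LG5 libraries, 7.0.0 for RC726 control and 7.1.0 for the others (genome build: not given in the sources used here). The deposited matrices hold UMI counts per gene (34981 genes) and barcode, and 33363 gene names were found in the RefSeq gene table. Barcodes with at least 300 genes were kept. Doublets were not removed: Scrublet's own threshold called at most 0.0228% of barcodes, so leaving out the top 6% of scores was an alternative.

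Counts were summed per library and class, and the 12 gate genes were left out. Classes of at least 10 barcodes were compared with edgeR 4.0.16 (R 4.3.3, filterByExpr, TMM, quasi-likelihood). Library was a block because both classes come from 1 punch. The filter keeps genes that reach its limit in the sums of 1 class alone, so some genes were tested only through their level in members. The 4 sums leave 1 residual degree of freedom, and the estimated prior degrees of freedom were infinite. Alternatives included DESeq2 1.42.0, other gates, depth matching and fits without the block. Whether libraries came from separate dogs is not stated. Genes named were the 15 largest positive and 12 largest negative differences among calls, up to 4 per list by size, the given markers and genes of the other comparisons; others were chosen after their values were seen. The members and lists were chosen with earlier results of these data known. Intervals are exact (95%) and cover counting error only.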

Additional observations from a re-analysis of the deposited data

How the results depend on the processing

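The count of 279 genes called between FBP1-positive barcodes and FBP1-negative microglia depended on the processing. Without the replicate block (the library) it was 33, with DESeq2 86, and with both classes from the myeloid gate 126. With the smaller libraries added it was 0 at a minimum of 5 barcodes a class (edgeR, 436 at an unadjusted p of 0.05) and 0 at a minimum of 3, an alternative chosen after seeing the data. That minimum with the myeloid gate also gave 0, and leaving out 1 library each from it gave 0 to 15. The 5 other alternatives gave 190 to 360. At least 2 FBP1 UMIs, a minimum of 20 barcodes, or leaving out an LG5 library left at most 1 library for this count of genes, so no value was obtained. Over named genes and alternatives, 436 values kept direction and side of the threshold, 302 lost the call, 2 gained one and 29 changed sign. The causes were not tested. At a minimum of 5 barcodes the log2 differences that changed sign were 0.49 for OSM, 0.27 for IL1A, -0.026 for LGALS3 and 1.04 for ITGAX. At a minimum of 3 they were -0.43 for PECAM1, 1.27 for OSM, 2.15 for IL1A, 0.012 for BHLHE41, 1.39 for ITGAX and 0.21 for APOE. With that minimum and the myeloid gate IL1A was 0.24; leaving out 1 library each gave IL1A 1.06, 0.70 and 0.13, APOE 0.019 and 0.17, and SPP1 -0.15. The myeloid gate gave CFB 0.38, CD68 -0.16 and MX1 0.21, and no block gave CD68 -0.76, MX1 0.46 and ISG15 0.018. MX1 was 0.76 with DESeq2, 0.026 with no filter and 0.54 with matched UMI totals. Without the top doublet scores CD68 was -0.25, IRF7 -0.23 and MKI67 -0.10. The mean log2 ratio of shares was 0.40 to 2.25 when 1 experiment was left out, and the mean difference in the myeloid gate 6.81 to 22.2 percentage points; with at least 2 FBP1 UMIs they were 2.53 and 14.5.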
